A study of Mus musculus with 12 samples.

Results

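Ung, Apex1, Msh6, Exo1, Trp53bp1 and Batf, 6 genes of the machinery of immunoglobulin class switching and somatic mutation, were followed through plasmablast differentiation of mouse B cells. They were chosen by name, with earlier results of these data known, so their counts beside all genes are descriptions, not tests. The 12 RNA sequencing libraries each list 24325 genes with FPKM values (fragment numbers scaled to transcript length and to the size of the library). All 6 were present in every library. Splenic B cells of the C57BL/6 strain, taken with anti-B220 beads, were kept for 4 days with 25 µg/ml LPS, a bacterial activator of B cells, and then sorted by flow cytometry. Activated B cells (ActB, CD138-Blimp1-GFP-), pre-plasmablasts (PrePB, CD138-Blimp-GFP+) and plasmablasts (PB, CD138+Blimp-GFP+) came from Mzb1+/+ Prdm1+/gfp mice (wt) and from Mzb1-/- Prdm1+/gfp mice (ko), with 2 libraries in each of the 6 groups. Both genotypes, controls included, thus carried 1 Prdm1 allele with GFP, the reporter used for the sort. Neither the age nor the sex of the mice is labelled, and nothing labelled says whether the 2 libraries of a group came from separate animals. The 2 wt libraries of each population differed in sex-linked transcripts (values below). For the ko libraries no such difference was seen, so p-values measure the spread between these libraries, which in the ko may be technical.

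Class switching and somatic hypermutation both begin when cytosine in immunoglobulin genes is deaminated to uracil. Uracil is either cut out by the glycosylase UNG, after which apurinic endonucleases nick the DNA, or read as a mismatch by a complex that contains MSH6, after which the nuclease EXO1 opens a gap. Breaks made in switch regions are held for end joining by 53BP1 (Trp53bp1), while the transcription factor BATF, which binds DNA together with IRF4 or IRF8, is needed for switching.

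The sorted populations carried their defining transcripts. Mzb1, the targeted gene, was at 845 to 17359 FPKM in the wt libraries and at 273 to 1008 FPKM in the ko libraries, and within each population the ko libraries lay below the wt libraries. Sdc1 (CD138) was at 0.978 to 1.43 FPKM in ActB, 3.24 to 5.24 FPKM in PrePB and 66.5 to 98.4 FPKM in PB. Prdm1 (Blimp1) was at 19.2 to 25.4 FPKM in ActB, 233 to 324 FPKM in PrePB and 218 to 263 FPKM in PB. The summed level of 6 plasma cell markers was 191 to 293 FPKM in ActB, 8610 to 11715 FPKM in PrePB and 18979 to 25764 FPKM in PB. Jchain made up most of the sum in PrePB (6670 to 9629 FPKM) and in PB (16299 to 22617 FPKM). Wt replicate 1 stood apart in all 3 populations: Xist was at 33.3 to 81.4 FPKM there and at most 0.389 FPKM in the other 9 libraries, and the Y-linked gene Eif2s3y was at 0 there and at 43.0 to 70.3 FPKM elsewhere. For the 6 genes and the genes named from lists below, results are given without that replicate where its removal changed a reported call. Counts of single lists are not given without it. Some calls in them were lost, among them Mre11a (-0.40), Dclre1c (-0.42), Mad2l2 (0.24) and Cdk1 (0.47 on the log2 scale) in wt PB against ActB. Among genes below 0.5 FPKM, the most frequent FPKM ratio of a pair of libraries (within 0.002 on the log2 scale) was shared by 9.07% to 20.5% of genes for pairs among 8 libraries, by 7.70% to 16.6% for pairs among the other 4 (ko ActB replicate 2, ko PrePB replicate 2 and both ko PB) and by 2.13% to 4.89% across these sets. In PB the set and the genotype cannot be told apart.

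Promoter sequence is shown for the 3 members with the largest decrease or with an increase on entry into PrePB. The bases lie directly before the start of transcription (Apex1, Msh6) or end 51 bases before it (Batf), on the plus strand of GRCm38.p6 as RefSeq gives them, and were trimmed to hold no annotated exon. Capitals mark matches to 4 motifs searched on both strands in the 250 bases before each start: the E-box CACGTG, the E2F motif TTTCCCGC, the CCAAT box and TGACGT, the core of the cyclic AMP response element.
Apex1, chr14:50924894-50924948: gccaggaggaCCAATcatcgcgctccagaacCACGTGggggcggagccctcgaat
Msh6, chr17:87974950-87975049: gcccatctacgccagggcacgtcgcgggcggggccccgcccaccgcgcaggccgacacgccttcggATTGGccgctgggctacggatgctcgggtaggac
Batf, chr12:85686569-85686668: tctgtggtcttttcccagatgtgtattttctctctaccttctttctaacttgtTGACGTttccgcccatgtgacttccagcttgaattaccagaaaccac
Counted back from the start, the Apex1 matches began at base -45 (CCAAT) and at base -24 (CACGTG), the Msh6 match at base -34 (ATTGG, the reverse complement of CCAAT) and the Batf match at base -98. Among 32851 mouse promoters, CACGTG was found in 6.02%, CCAAT in 33.8%, TGACGT in 6.47% and TTTCCCGC in 0.895%. By symbol, 5 of the 6 genes matched a RefSeq promoter, all but Exo1. Ung and Trp53bp1 held no match in this window, and these matches are descriptions of letters, not of bound sites.

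The 6 genes went separate ways when activated B cells became pre-plasmablasts. In wt cells, Batf fell by 1.40 and Apex1 by 1.33 on the log2 scale, Trp53bp1 fell by 0.54, Msh6 rose by 0.49, and Ung (-0.076) and Exo1 (-0.14) did not pass the test. Of the 6, 4 were called (1 higher, 3 lower) by limma on log2(FPKM + 1) at an adjusted p below 0.05, against 53.4% of the 11069 genes tested (27.1% higher, 26.3% lower). The same 4 were called in the same directions in ko cells, where 54.2% of genes were called (27.1% higher, 27.0% lower). PrePB and ActB libraries were fully separated for 5 of the 6 genes in wt, against 75.6% of all genes, and for 4 of the 6 in ko, against 77.2%. Each change below is on the log2(FPKM + 1) scale, which slightly understates the change of the lower genes. In sorted bulk populations, fewer cells making a transcript and less transcript per cell cannot be told apart.

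**Figure D1:**
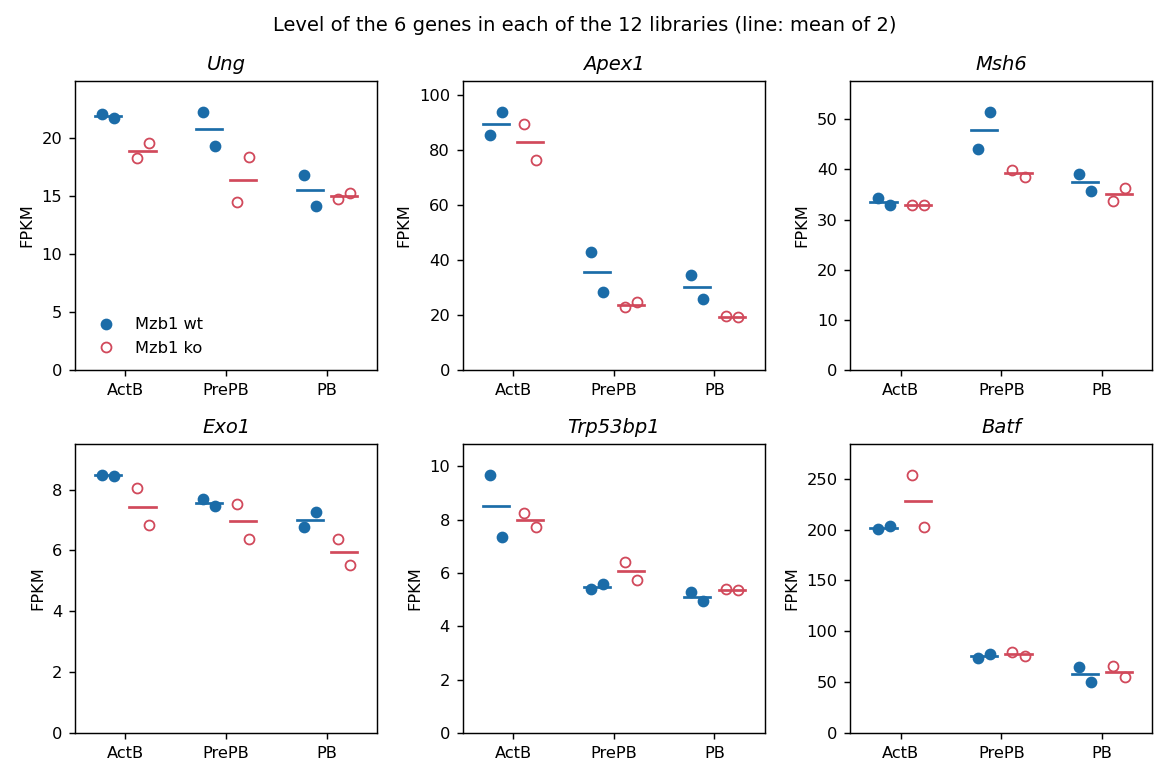
FPKM of each of the 6 genes (vertical axes, each from 0) in the 12 libraries by sorted population (horizontal axis), with filled points for wt, open points for ko and bars for the mean of 2 libraries. Batf and Apex1 are highest in ActB in both genotypes, and Msh6 is highest in PrePB.

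Ung, the glycosylase that removes uracil from DNA, spanned a narrow range, with the highest library 1.57 times the lowest. It was at 22.1 and 21.7 FPKM in wt ActB and 18.2 and 19.6 FPKM in ko ActB. In PrePB it was at 22.2 and 19.3 FPKM (wt) and 14.4 and 18.3 FPKM (ko), and in PB at 16.8 and 14.2 FPKM (wt) and 14.7 and 15.2 FPKM (ko). All 4 PB libraries lay below all 4 ActB libraries, whereas PrePB overlapped both. In PB against ActB, Ung fell by 0.48 on the log2 scale in wt (SE 0.12, limma adjusted p = 0.00611) and by 0.32 in ko (SE 0.12, adjusted p = 0.0438). The wt call was lost without wt PB replicate 2 (-0.36, adjusted p = 0.0607). The ko call was lost with no filter (adjusted p = 0.0701), without any 1 of its 4 libraries (-0.36 to -0.27) and without wt replicate 1 (-0.32). PrePB against ActB gave -0.076 in wt (adjusted p = 0.635) and -0.20 in ko (adjusted p = 0.186). Both were called when libraries were scaled to equal totals (-0.32 and -0.35). That scaling moved the median of all genes in these comparisons to -0.24 in wt and -0.15 in ko. From PrePB to PB, Ung was at -0.40 in wt (SE 0.12, limma adjusted p = 0.0718), with no overlap of the 2 wt groups, and at -0.11 in ko (adjusted p = 0.626). The wt step was called with equal totals (-0.55, adjusted p = 0.0181), where the median of all genes was -0.13. It was also called with a term for the 2 sets of libraries with shared low-value ratios (adjusted p = 0.0458).

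Apex1 encodes the main apurinic endonuclease, which nicks DNA at the site UNG leaves. Its level was 85.4 and 93.8 FPKM in wt ActB and 89.3 and 76.4 FPKM in ko ActB. In PrePB it was 43.0 and 28.5 FPKM (wt) and 23.0 and 24.6 FPKM (ko), and in PB 34.5 and 26.0 FPKM (wt) and 19.7 and 19.2 FPKM (ko). All 8 PrePB and PB libraries lay below all 4 ActB libraries, while PrePB and PB overlapped. Apex1 fell by 1.33 on the log2 scale in wt PrePB against wt ActB (SE 0.18, limma adjusted p = 9.45e-05) and by 1.75 in the ko (SE 0.18, adjusted p = 1.2e-05). In PB against ActB it fell by 1.55 in wt (SE 0.18, adjusted p = 2.16e-05) and by 2.03 in ko (SE 0.18, adjusted p = 2.6e-06). In the 4 contrasts with ActB, Apex1 and Batf were called under every alternative setting that was run. From PrePB to PB, Apex1 changed by -0.22 in wt (adjusted p = 0.493) and -0.28 in ko (adjusted p = 0.365), neither of which passed. Apex2, a second apurinic endonuclease, rose by 0.60 in wt PB against ActB (SE 0.098, adjusted p = 0.000325), and its call was lost with equal library totals (0.23, adjusted p = 0.0582). The ratio of Ung to Apex1 FPKM within a library, also chosen with the values known, was 0.204 to 0.258 in ActB, 0.517 to 0.744 in PrePB and 0.487 to 0.792 in PB (n = 4 each), and every ActB ratio was below every other.

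Msh6 encodes a subunit of the complex that binds U:G mismatches, and was the member that rose. Its level was 34.4 and 32.8 FPKM in wt ActB and 32.9 and 33.0 FPKM in ko ActB. In PrePB it was 44.1 and 51.4 FPKM (wt) and 39.9 and 38.5 FPKM (ko), and in PB 39.1 and 35.8 FPKM (wt) and 33.7 and 36.3 FPKM (ko). All 4 PrePB libraries lay above all 4 ActB libraries, and PB overlapped both. Msh6 rose by 0.49 on the log2 scale in wt PrePB against ActB (SE 0.090, limma adjusted p = 0.000944), a direction that held with equal library totals although the call did not (0.25, adjusted p = 0.0587). In the ko it rose by 0.25 (SE 0.090, adjusted p = 0.0396), and that call was lost with equal totals (0.096) and without any 1 of its 4 libraries (0.22 to 0.27). From PrePB to PB it fell by 0.34 in wt (SE 0.090, adjusted p = 0.0431), and at this step 1 of the 6 was called by limma, where 8.73% of genes were called and 3.70% were called lower. Without PrePB replicate 2, PB replicate 1 or PB replicate 2 of wt this call was lost (-0.23, -0.40 and -0.28), and without wt replicate 1 of every population as well (-0.51). The same call was lost with no filter (adjusted p = 0.0559) and with the compared groups alone (adjusted p = 0.129). In ko the step was -0.16 (adjusted p = 0.302), and none of the 6 was called by limma, with 1 of 6 at an unadjusted p below 0.05 and 10.8% of all genes called. Libraries of PB and PrePB did not overlap for 5 of the 6 genes in wt (55.6% of all genes) and for 4 of the 6 in ko (54.9%).

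PB against ActB left Msh6 at 0.15 in wt (SE 0.090, adjusted p = 0.169) and 0.085 in ko (adjusted p = 0.434). The wt value changed sign with equal library totals (-0.25, adjusted p = 0.0488), where the median of all genes was -0.38. The ratio of Exo1 to Msh6 FPKM within a library does not change when all its genes are scaled by the same factor, as with equal totals. It was 0.207 to 0.258 in ActB (n = 4), 0.145 to 0.189 in PrePB (n = 4) and 0.152 to 0.203 in PB (n = 4). The PrePB and PB ratios were below every ActB ratio in both genotypes. This ratio was chosen with the values known and carries no test.

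Exo1, the exonuclease that acts after mismatch recognition, was among the lowest members, at 5.53 to 8.49 FPKM. It was at 8.49 and 8.46 FPKM in wt ActB and 8.05 and 6.82 FPKM in ko ActB. In PrePB it was at 7.70 and 7.44 FPKM (wt) and 7.54 and 6.38 FPKM (ko), and in PB at 6.78 and 7.25 FPKM (wt) and 6.38 and 5.53 FPKM (ko). Within each genotype the PB libraries lay below the ActB libraries. PB against ActB gave -0.24 in wt (SE 0.12, limma adjusted p = 0.0989) and -0.28 in ko (SE 0.12, adjusted p = 0.0627), so Exo1 did not pass the test. With equal library totals both were called (-0.61 in wt, adjusted p = 0.00271, and -0.54 in ko, adjusted p = 0.00592). The median of all genes was then -0.38 in wt and -0.27 in ko. The ko change was also called with quantile normalization (-0.29, adjusted p = 0.0491), and without ko ActB replicate 2 it was -0.38. PrePB against ActB gave -0.14 in wt (limma adjusted p = 0.330) and -0.084 in ko (adjusted p = 0.576). The wt step was called with equal totals (-0.37, adjusted p = 0.0422), where the median of all genes was -0.24.

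Trp53bp1, which protects broken ends from resection, was at 9.69 and 7.37 FPKM in wt ActB and 8.24 and 7.72 FPKM in ko ActB. In PrePB it was at 5.38 and 5.60 FPKM (wt) and 6.41 and 5.74 FPKM (ko), and in PB at 5.30 and 4.94 FPKM (wt) and 5.39 and 5.35 FPKM (ko). All 8 PrePB and PB libraries lay below all 4 ActB libraries. Trp53bp1 fell by 0.54 on the log2 scale in wt PrePB against ActB (SE 0.13, limma adjusted p = 0.0042), a call that was lost without wt replicate 1 (-0.34, adjusted p = 0.116). In ko it fell by 0.34 (SE 0.13, adjusted p = 0.0396), and the call was lost without any 1 of the 4 libraries (-0.41 to -0.28). That ko call was also lost with no filter (adjusted p = 0.0628) and with the compared groups alone (adjusted p = 0.0516). In PB against ActB, Trp53bp1 fell by 0.63 in wt (SE 0.13, adjusted p = 0.00132) and by 0.49 in ko (SE 0.13, adjusted p = 0.00586). From PrePB to PB it changed by -0.086 in wt (adjusted p = 0.729) and by -0.15 in ko (adjusted p = 0.515).

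Batf is the switching factor of the set and the member with the highest FPKM in ActB. Its level was 200 and 204 FPKM in the 2 wt ActB libraries and 254 and 203 FPKM in the 2 ko ActB libraries. In PrePB it was 73.7 and 77.7 FPKM (wt) and 79.7 and 75.9 FPKM (ko), and in PB 65.2 and 50.6 FPKM (wt) and 65.7 and 54.8 FPKM (ko). Every PrePB library was below every ActB library, and every PB library was below every PrePB library. In PrePB against ActB, Batf fell by 1.40 on the log2 scale in wt (SE 0.14, limma adjusted p = 9.22e-06) and by 1.53 in ko (SE 0.14, adjusted p = 4.77e-06). In PB against ActB it fell by 1.80 in wt (SE 0.14, adjusted p = 9.14e-07) and by 1.90 in ko (SE 0.14, adjusted p = 5.97e-07). The step from PrePB to PB was -0.39 in wt (SE 0.14, adjusted p = 0.105) and -0.37 in ko (SE 0.14, adjusted p = 0.118), and neither passed the test although the libraries did not overlap. The wt step was called when libraries were scaled to equal totals (-0.55, adjusted p = 0.0460), where the median of all genes was -0.13.

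Irf4, a partner of BATF on DNA and a factor of both switching and plasma cell formation, was at 64.5 to 79.3 FPKM in ActB, 223 to 275 FPKM in PrePB and 266 to 310 FPKM in PB, and it rose by 1.98 on the log2 scale in wt PB against ActB (SE 0.12, limma adjusted p = 1.7e-07). The ratio of Batf to Irf4 FPKM was 2.63 to 3.20 in ActB, 0.290 to 0.330 in PrePB and 0.175 to 0.243 in PB (n = 4 each), so the 3 populations did not overlap. The ratio was likewise chosen with the values known.

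**Figure D2:**
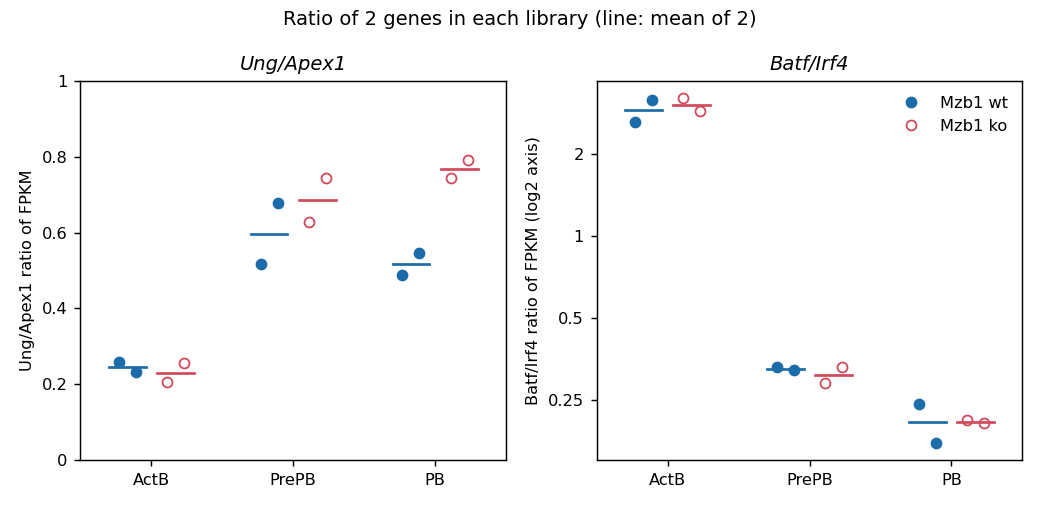
Ratio of FPKM of Ung to Apex1 (left, linear axis from 0) and of Batf to Irf4 (right, log2 axis) in each library, by sorted population, with filled points for wt, open points for ko and lines for the mean of 2. The Ung to Apex1 ratio is at most 0.258 in ActB and at least 0.487 elsewhere, and the Batf to Irf4 ratio is at least 2.63 in ActB and at most 0.330 elsewhere.

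Over the whole course from ActB to PB, 4 of the 6 genes were called lower and none higher in wt, where 62.0% of all genes were called and 31.0% were called lower. In ko, where 62.2% were called and 30.9% were called lower, the count was again 4 lower. The 4 were Ung, Apex1, Trp53bp1 and Batf in both genotypes. The libraries of PB and ActB did not overlap for 6 of 6 genes in wt and in ko, against 81.0% and 81.2% of all genes tested. The median change of the 6 in wt was -0.55 on the log2 scale, and that of all genes was -0.014. Scaled to equal library totals, the median of all genes became -0.38, and the share of called genes that were higher went from 50% to 27.1%. Msh6 (-0.25) and Exo1 (-0.61) were then called lower besides the 4. The share of all tested genes called lower under that scaling is not given here, so 6 of 6 cannot be set beside it.

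**Figure D3:**
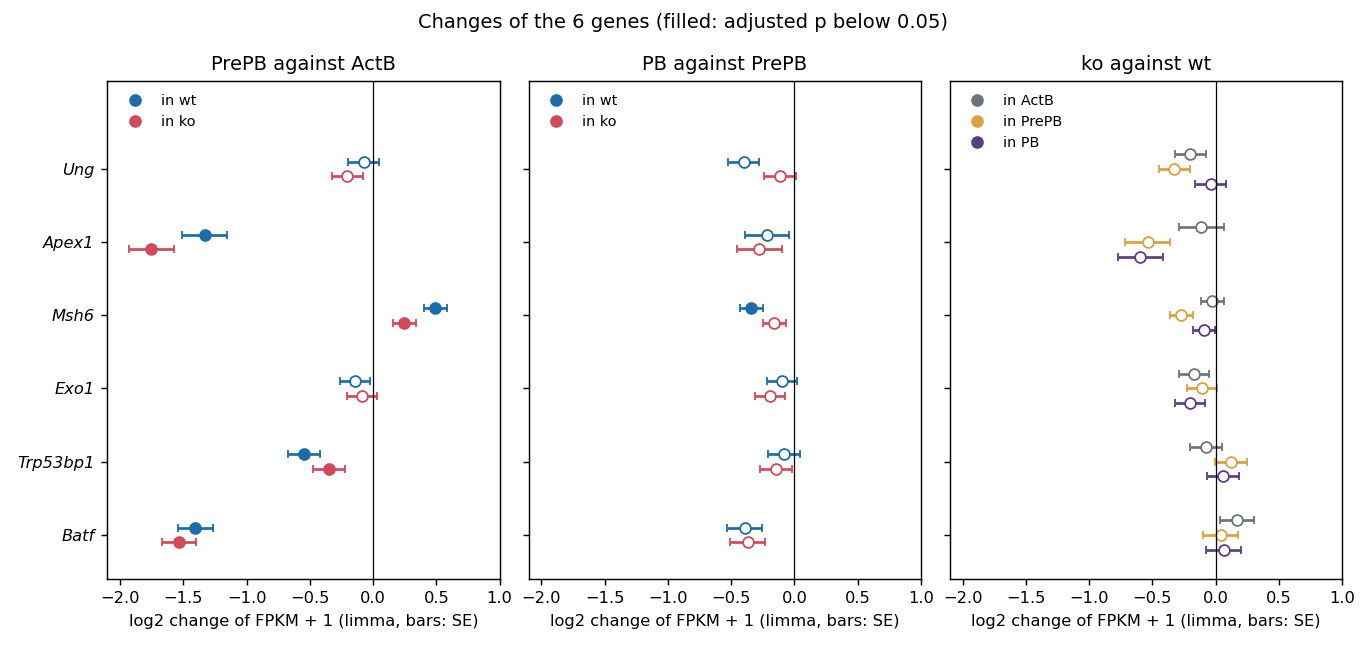
Log2 change of each of the 6 genes (horizontal axis, log2(FPKM + 1) scale, bars for the SE from limma) in PrePB against ActB (left), PB against PrePB (middle) and ko against wt (right), with filled points for an adjusted p below 0.05. Batf and Apex1 lie lowest on the left (-1.75 to -1.33), Msh6 lies above 0 there (0.49 and 0.25), and no point on the right is filled.

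Loss of Mzb1, a chaperone of the endoplasmic reticulum in plasma cells, moved none of the 6 past the threshold in any population. The limma counts were 0 of 6 in ActB (0 at an unadjusted p below 0.05, 0.0542% of all genes called), 0 of 6 in PrePB (3 at an unadjusted p below 0.05, 0.117% of all genes called) and 0 of 6 in PB (1 at an unadjusted p below 0.05, 0.407% of all genes called). The ko and wt libraries did not overlap for 2 of the 6 genes in ActB, 4 in PrePB and 3 in PB, against 36.0%, 47.1% and 49.3% of all genes. Apex1 had the lowest ko values relative to wt: -0.54 in PrePB (95% interval -0.93 to -0.15, adjusted p = 0.214) and -0.60 in PB (95% interval -0.99 to -0.21, adjusted p = 0.15). In both populations the ko libraries lay below both wt libraries, and without wt replicate 1 the values were -0.25 and -0.40. In PrePB, Ung was at -0.33 (95% interval -0.60 to -0.056, adjusted p = 0.252) and Msh6 at -0.27 (95% interval -0.47 to -0.074, adjusted p = 0.215). Batf was at 0.17 in ActB (95% interval -0.13 to 0.47), 0.040 in PrePB (-0.26 to 0.34) and 0.063 in PB (-0.24 to 0.37). Exo1 and Trp53bp1 lay between -0.21 and 0.12 in the 3 populations. Tests of whether the genotype difference itself changed between populations called 0 of 6 genes by limma, with 0 at an unadjusted p below 0.05, against 0.0361% (PrePB against ActB), 0% (PB against PrePB) and 0.0452% (PB against ActB) of all genes. The intervals allow differences of this size, so similarity of the genotypes is not shown.

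The other genes of the pathway were taken from 7 lists of 90 genes, 84 of them not among the 6; the files list 80 of these, and 76 passed the filter on low values. In wt PrePB against ActB, 16 were called higher and 25 lower (41 of 76), against 53.4% of all genes (27.1% higher, 26.3% lower). In wt PB against ActB, 16 were called higher and 30 lower (46 of 76), against 62.0% of all genes (31.0% lower). The median change there was -0.20. With equal totals, where 31.1% and 27.1% of all called genes were higher, these counts were 11 and 40, and 6 and 53. Without wt replicate 1, which left 1 wt library per population, the counts were below those of the main fit in both directions. The shares of all tested genes called in these settings are not given here, so the counts cannot be set beside them. From PrePB to PB, 0 were called higher and 8 lower in wt, where 8.73% of all genes were called (3.70% lower). In ko, 1 was called higher and 8 lower at this step, where 10.8% of all genes were called. Between genotypes, 1 of the 76 was called, Pax5, the B cell identity factor, in PB, where 0.407% of all genes were called. It was higher in ko PB (7.24 and 5.92 FPKM) than in wt PB (2.02 and 2.76 FPKM), by 1.17 on the log2 scale (SE 0.12, limma adjusted p = 0.0031). In PB the set of libraries with shared low-value ratios and the genotype cannot be told apart. Pax5 was also higher in ko ActB (190 and 191 against 151 and 147 FPKM) and ko PrePB (17.0 and 20.2 against 13.6 and 13.8 FPKM). Neither was called (limma adjusted p = 0.515 and 0.181).

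In wt PB against ActB, 62.0% of all genes were called and 31.0% were called lower. Of 11 genes that act with cytosine deamination, 2 were called higher and 5 lower there. The latter included Rpa1, which binds single-stranded DNA (-1.05, SE 0.075, limma adjusted p = 5.33e-07). The uracil and base repair list, which holds Ung and Apex1, split into 4 higher and 5 lower of 12. The flap nuclease gene Fen1 (0.94, SE 0.074, adjusted p = 1.14e-06) and the ligase gene Lig3 (0.77, SE 0.11, adjusted p = 0.000113) rose there while Apex1 fell. Of 8 mismatch repair genes, which include Msh6 and Exo1, 0 were called higher and 1 lower, Pms1 (-0.80, SE 0.18, adjusted p = 0.00247), and without wt replicate 1 Pms1 was not called (-0.51, adjusted p = 0.136). By limma, Mlh3 did not pass (-0.25, adjusted p = 0.0795). It was called with equal totals (-0.55, adjusted p = 0.0025), where the median of all genes was -0.38.

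**Figure D4:**
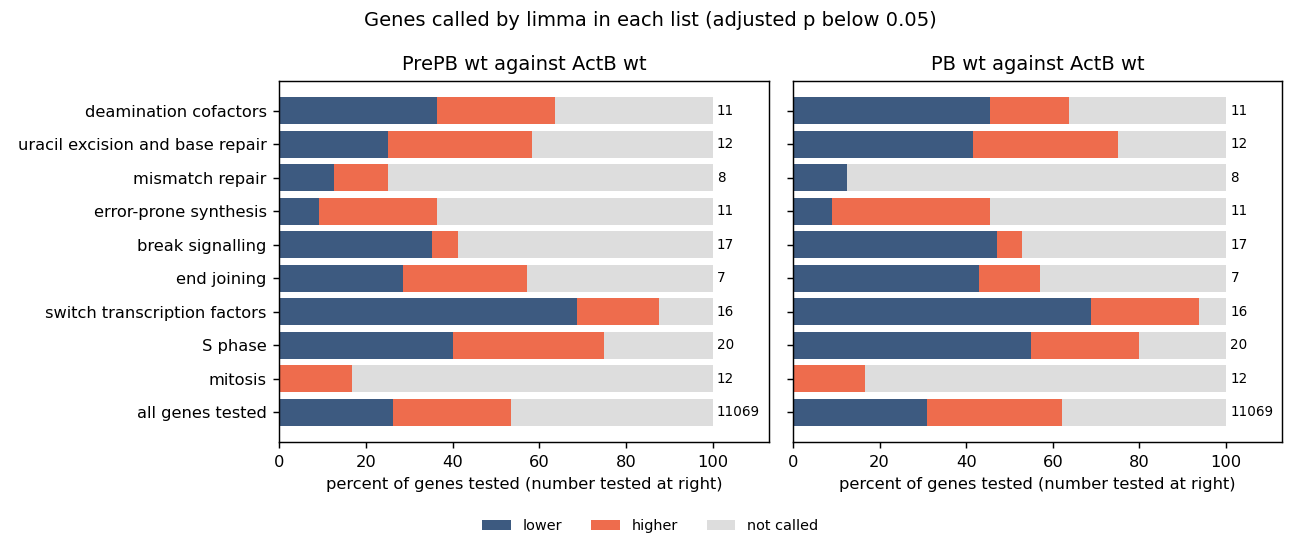
Share of the tested genes of each list (horizontal axis, percent, number tested at right) called lower, higher or not called by limma in wt PrePB against ActB (left) and wt PB against ActB (right). The list of switch transcription factors holds 11 lower genes of 16 in both panels, and mismatch repair holds 1 lower and 0 higher of 8 in PB against ActB. Of all genes tested, 53.4% are called on the left (26.3% lower) and 62.0% on the right (31.0% lower). With equal library totals more genes are called lower.

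Among 17 break signalling genes, Trp53bp1 included, 8 were called lower and 1 higher in wt PB against ActB. That is 9 of 17 called, where 62.0% of all genes were called and 31.0% were called lower. The kinase gene Atm had the lowest p of these (-1.66, SE 0.25, limma adjusted p = 0.00016). Of 7 end joining genes 3 were called lower and 1 higher. Lig4, the ligase of the classical pathway, rose by 1.46 (SE 0.13, adjusted p = 2.82e-06), and Prkdc, the catalytic subunit of the DNA-dependent kinase, fell by 1.33 (SE 0.23, adjusted p = 0.000476). Error-prone synthesis had 4 higher and 1 lower of 11. The ubiquitin-conjugating enzyme genes Ube2b (0.96, adjusted p = 5.08e-06) and Ube2a (-1.05, adjusted p = 4.24e-06) moved in opposite directions, and the rise of Polh, the polymerase of A:T mutation (0.45, adjusted p = 0.000551), was lost with equal totals (0.050, adjusted p = 0.632). Of 16 switch transcription factors, Batf among them, 11 were called lower and 4 higher, with Pax5 (-5.48, adjusted p = 4.16e-10) and Nfkb1 (-1.61, adjusted p = 3.42e-08) among the lower and Irf4 among the higher.

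Values that moved together with the populations are given beside these results, and their part in them was not tested. Of 20 S phase genes, 5 were called higher and 11 lower in wt PB against ActB (median -0.35). Of 12 mitosis genes, 2 were called higher and 0 lower (median -0.15). These were Cdk1 (0.50) and Mki67 (0.74). With equal totals limma called neither (0.093, adjusted p = 0.520, and 0.33, adjusted p = 0.223), and the median of all genes was -0.38. Mki67 was not called with quantile normalization (0.58, adjusted p = 0.0561), nor Cdk1 without wt replicate 1 (0.47). Of all genes tested, 62.0% were called in wt PB against ActB and 31.0% were called lower (median -0.014). The summed FPKM of 6 macrophage and granulocyte markers was 7.89 to 30.1 in ActB, 0.950 to 4.40 in PrePB and 0.337 to 4.09 in PB, with S100a9 at 0 in all 12 libraries. For 6 T cell markers the sum was 7.23 to 10.6 FPKM in ActB, 9.15 to 13.6 in PrePB and 7.93 to 15.6 in PB. The 4 dendritic cell markers summed to 18.7 to 24.0 FPKM, 10.2 to 14.6 FPKM and 7.34 to 10.0 FPKM, and the 3 natural killer cell markers to 0 to 0.0405 FPKM, 0.648 to 1.30 FPKM and 4.44 to 6.01 FPKM, with Ncr1 at 0 throughout. Single genes carried these sums. Eomes made up nearly all of the natural killer sum in PB (4.40 to 6.01 FPKM). Among the T cell markers, Cd3g was at 0.207 to 0.808 FPKM in ActB and 3.19 to 8.17 FPKM in PB. Lck was at 6.56 to 9.70 FPKM in ActB and 4.43 to 6.22 FPKM in PB. Of the macrophage and granulocyte markers, Adgre1 was at 7.84 to 28.2 FPKM in ActB and at most 0.844 FPKM in PB. Lyz2 was at most 1.73 FPKM in ActB and 3.80 FPKM in PB, and Csf1r and Cd14 at most 0.121 FPKM in ActB. Of the dendritic markers, Flt3 was at 16.4 to 22.2 FPKM in ActB and 6.90 to 9.04 FPKM in PB, and Itgax at most 1.72 and 0.676 FPKM.

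Exons of 3 of the 6 genes overlap a gene on the opposite strand in GENCODE. The largest overlap of any 2 exons was 684 bases for Apex1 with Pip4p1, 34 bases for Msh6 with Fbxo11 and 1873 bases for Trp53bp1 with Tubgcp4. The library kit keeps strand, but whether strand was used in quantification is not given in the sources used here; if not, reads of the 2 genes cannot be told apart. Tmem55b, the older name of Pip4p1, had a median of 31.0 FPKM in ActB, 21.7 FPKM in PrePB and 25.4 FPKM in PB (n = 4 each), and it fell by 0.49 on the log2 scale in wt PrePB against ActB (limma adjusted p = 0.000669), where Apex1 fell by 1.33. Tubgcp4 had medians of 12.3, 12.3 and 12.6 FPKM and was not called in that comparison (-0.11, adjusted p = 0.485), where Trp53bp1 fell. Fbxo11 was at 0.34 in wt PrePB against ActB (adjusted p = 0.0588), where Msh6 rose by 0.49, and it rose by 0.37 in ko (adjusted p = 0.0429), where Msh6 rose by 0.25.

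Across the 12 libraries, which share populations and therefore are not independent, the genes most like each member in log2(FPKM + 1) were found among 10471 genes. Batf followed Ksr1 (Pearson r = 0.996), Ugdh (0.994) and Stk26 (0.992), and Apex1 followed Slc25a5 (0.994), Cct4 (0.990) and Dkc1 (0.988). For Trp53bp1 they were Ccdc137 (0.972), Tha1 (0.971) and Ino80 (0.970), and for Exo1 Taf15 (0.967), Tipin (0.951) and Hmgb2 (0.950). Ung was most like Sfxn1 (0.961), Ddx39 (0.940) and Zmynd19 (0.933). Msh6 had the loosest matches, with Oasl1 (0.881), Xrcc5 (0.879) and Camsap2 (0.878). Among the 6 themselves, r was 0.933 for Trp53bp1 with Batf and 0.930 for Apex1 with Batf, and it was -0.50 for Msh6 with Batf. When the 6 groups were ordered by their mean FPKM, neighbouring groups of Ung overlapped throughout. For Msh6 the top group, wt PrePB, stood clear of the next, and for Exo1 the top group, wt ActB, did. For Batf, both ActB groups stood clear of both PrePB groups and these of both PB groups, with overlap between genotypes at each stage.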

How the data were processed

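FPKM values were deposited by the authors, 1 table per library. Per the submitters' processing notes, reads were processed against mm9 with TopHat2 2.0.14, Cuffnorm 2.2.1 and Cufflinks 2.2.1, with bcl2fastq (2.17.1.14 and 0.3.1) and Cuffdiff also named; per the labels' protocols, libraries were made from poly(A) RNA with the TruSeq Stranded mRNA kit. Fragment numbers are not in these values, so depth is unknown and no counting interval is given. FPKM totals ran from 418966 to 581262 per library, 0.982% to 14.2% of them in small RNA genes. Replicates correlated at r = 0.984 to 0.989.

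Genes reaching 1 FPKM in 2 or more libraries (11069 of 24325) were fitted on log2(FPKM + 1) with limma 3.58.1 in R 4.3.3, with 1 coefficient per group, a trended prior, 6 residual and 4.49 prior degrees of freedom and two-sided tests. Benjamini-Hochberg adjustment ran over all genes within each comparison, and adjusted p below 0.05 was a call. The fit was tested on simulated data. The members and gene lists were chosen with earlier results of these data known. Genes named from a list were up to 4 with the smallest p in wt PB against ActB; Pax5, the ratios and the exon-sharing neighbours were chosen after their values were seen. Alternatives covered filters, pseudocount, scaling, groups fitted, a replicate block, the set of libraries with shared low-value ratios and left-out libraries. Some genes of the pathway are not reported here.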

Additional observations from a re-analysis of the deposited data

How the results depend on the processing

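Of 1014 values of the 6 genes under an alternative, 972 kept their side of the threshold and, if called, their direction. Of the rest, 26 lost a call, 15 gained one and 1 reversed: Msh6 in wt PB against ActB with equal totals (-0.25). The 1014 include the genotype and interaction comparisons, in which 0 of the 6 were called in the main fit. No call could be lost in those, and the 26 lost calls all lay in comparisons between populations. The causes were not tested.

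Counts of genes called moved by over 1.5 times as follows. For wt PB against PrePB (966) they were 1457 with equal totals, 532 with the compared groups alone, 58 without wt replicate 1 of every population and 248 to 418 without 1 library; of the 6 genes, 0 were called with no filter, with the compared groups alone and without wt replicate 1 of every population, 3 with equal totals, 2 with a term for the set of libraries with shared low-value ratios, and 0 to 1 without 1 library. For ko PB against PrePB (1196) they were 489 with the compared groups alone, 724 without wt replicate 1 and 377 to 808 without 1 library. For ko PrePB against ActB, 2 to 3 of the 6 were called without 1 library. For ko against wt in ActB (6) they were 10 with no filter, 3 with the compared groups alone, 14 without wt replicate 1 and 3 to 6 without 1 library. In PrePB (13) they were 20 with quantile normalization, 24 with equal totals, 8 with the compared groups alone and 7 to 8 without 1 library. In PB (45) they were 27 with no filter, 72 with equal totals, 8 with the compared groups alone, 4 with the term for that set, 9 without wt replicate 1 and 10 to 41 without 1 library. For the interactions, PrePB with ActB (4) gave 2 with a pseudocount of 0.1, 1 with the compared groups alone and 1 to 4 without 1 library; PB with PrePB (0) gave 4 with no filter, 1 with the term for that set and 0 to 1 without 1 library; PB with ActB (5) gave 2 to 10 without 1 library.

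With a replicate block, wt PB against PrePB called 1558 genes and 3 of the 6 (Ung at adjusted p = 0.0258 and Batf at 0.0447 besides Msh6), Exo1 was called in PB against ActB (adjusted p = 0.0477 in wt and 0.0277 in ko), and the first interaction called 2 genes; it changed no other call of the 6. The labels do not say that a number marks an animal; sex-linked transcripts separate wt replicate 1 from wt replicate 2 in all 3 populations, a hint from the data, and the replicate differences of 2 populations correlated at 0.046 to 0.316 within a genotype and at -0.11 to -0.047 between genotypes. Crossing the numbers between genotypes in ActB, an alternative chosen after seeing the data, gave 8 genes called and 0 of the 6. Depth is unknown, so precision rests on 2 libraries per group.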
